A study of Mus musculus and Homo sapiens with 10 samples.

Results

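H3K122ac islands of K562 cells that met neither an H3K27ac nor an H3K4me1 island are described here, and are called H3K122ac-only islands. An island is a stretch of joined windows listed by the authors' peak caller. Its reads in the immunoprecipitated library exceeded those in a background library scaled by the ratio of the libraries. Of 72662 H3K122ac islands in the list, 71120 were shorter than 10000 bp, and 7236 of these shared no base pair with an island of either other mark. That is 10.2% (Wilson 95% interval 9.95 to 10.4%) of the islands under 10000 bp. The series holds 10 native chromatin immunoprecipitation libraries from mouse embryonic stem cells and from K562, a human erythroleukaemia line that carries the BCR-ABL1 fusion. The K562 cells were untreated, undifferentiated cultures at passage 14, and their 4 libraries, 1 each, were made against H3K122ac, H3K27ac and H3K4me1, and from input chromatin. All values below come from the 3 K562 island lists on build hg19.

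The lysine that H3K122ac names lies in the globular core of the nucleosome, on the surface where the DNA crosses the dyad, and its acetylation is known to loosen the contact between histone and DNA. H3K27ac is placed on the H3 tail by p300 and CBP and is the usual mark of active promoters and enhancers. H3K4me1 is spread over enhancers whether they are active or only primed, and is low at the start sites of active promoters. An H3K122ac island without either tail mark is therefore one that a search for enhancers by H3K27ac and H3K4me1 would pass over, and the study asked whether globular-domain acetylation marks such regulatory regions.

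These islands were chosen by measured values, namely the island calls and lengths in the 3 lists, so their lack of the other marks is not a result. There was 1 list per mark and no replicate list, so no test between groups was possible, and intervals cover counting error only, with neighbouring islands not independent. Islands were compared with 3 other groups of H3K122ac islands under 10000 bp, namely 8635 that met H3K4me1 only, 3096 that met H3K27ac only and 52153 that met both. No hg19 gene annotation or genome was used here, so regions are given by coordinates without genes or sequence.

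H3K122ac-only islands were short and held few reads. Their median length was 1000 bp, with the middle of the distribution, from the 25th to the 75th percentile, running from 600 to 1400 bp. The median was 1200 bp for islands with H3K4me1 only, 1200 bp with H3K27ac only and 2200 bp with both. Islands of up to 400 bp made up 13.0% of the H3K122ac-only group. The share was 6.17% with H3K4me1 only, 6.43% with H3K27ac only and 1.95% with both. Of the 271 islands formed by a single 200 bp window in all 4 groups, 127 were H3K122ac-only. The median number of H3K122ac reads in an H3K122ac-only island was 48, with a 5th percentile of 29 and a 95th percentile of 105, against 59 with H3K4me1 only, 73 with H3K27ac only and 165 with both. Together the H3K122ac-only islands covered 8.13 Mb, or 4.26% of the length of the whole list, and held 2.20% of its island reads.

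Enrichment of these islands was intermediate and widely spread. The fold, as deposited by the authors, is the H3K122ac count over the background count after scaling by the ratio of the libraries. Its median was 4.55 (95% interval of the median 4.45 to 4.67), with a 10th percentile of 1.99 and a 90th of 13.9. Islands with H3K4me1 only had a lower median of 3.23 (3.18 to 3.28), those with H3K27ac only a median of 5.2 (4.99 to 5.46) and those with both marks 5.93 (5.88 to 5.98). The log2 ratio of medians was 0.495 against islands with H3K4me1 only and -0.382 against islands with both marks. Within joint ranges of length and background the first of these was 0.0103, as a mean weighted by the number of H3K122ac-only islands. It turned to -0.303 when only other-mark islands with a fold of at least 3 were counted. A fold of 5 or more was reached by 3253 H3K122ac-only islands, 45% (43.8 to 46.1%), set beside 52.5% of all H3K122ac islands under 10000 bp. It was reached by 24.2% of islands with H3K4me1 only, 51.7% with H3K27ac only and 58.3% with both. A fold of 10 or more was reached by 17.4% (16.5 to 18.3%) of H3K122ac-only islands, against 22.5% of all islands.

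Depth limits the fold of a single island. An island with the median counts of the group, 48 H3K122ac reads over 41 background reads, has a fold of 4.53 with an exact 95% interval of 2.93 to 7.05. The highest folds of the group rest on almost no background. All 20 of the highest, from 105 to 1069, had between 0 and 2 background reads. In 10 islands the background count was 0, which the list enters as 0.25. Against a floor of 3 background reads in each of these islands, their H3K122ac counts of 24 to 69 give folds of at least 31.0 to 89.1. Fewer than 10 background reads were counted in 417 H3K122ac-only islands, 5.76% of them. The share was 0.486% with H3K4me1 only, 2.13% with H3K27ac only and 0.0729% with both. Without the 417 islands the median fold of the H3K122ac-only group was 4.31.

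**Figure D1:**
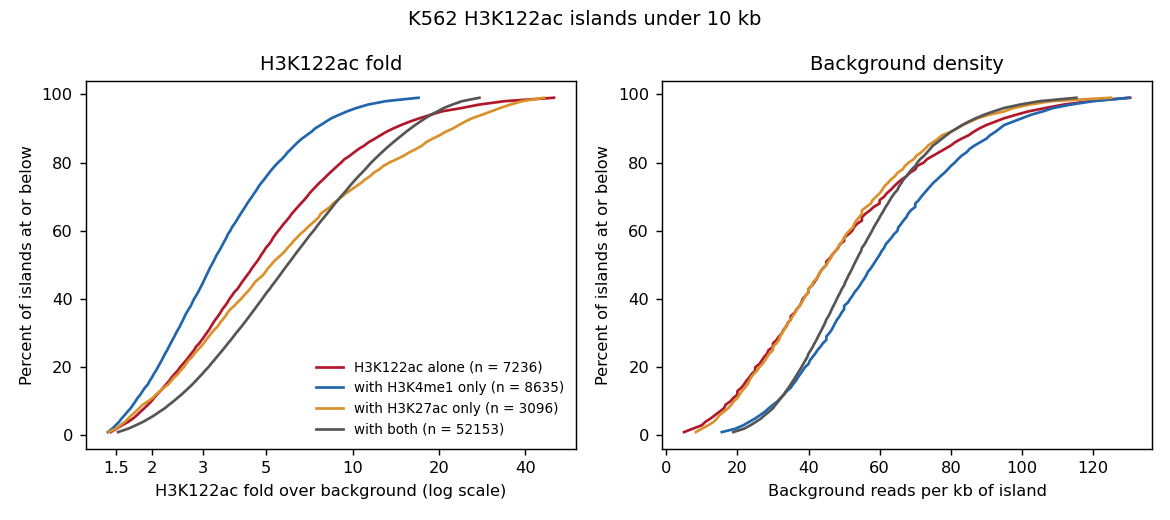
Cumulative distributions of H3K122ac fold (left, log scale) and of background reads per kb of island (right) for the 4 groups of H3K122ac islands under 10000 bp, from the 1st to the 99th percentile. The fold curve of H3K122ac-only islands lies between those of islands with H3K4me1 only and with both marks over most of its course, and their background curve starts lower and is wider than that with both marks.

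The background under these islands differed as well. H3K122ac-only islands had a median of 45 background reads per kb, with a 10th percentile of 18.0 and a 90th of 88.0. The median was 58.1 with H3K4me1 only, 45 with H3K27ac only and 52.7 with both. Under 20 background reads per kb were found in 11.6% of H3K122ac-only islands, against 2.03% with H3K4me1 only, 10.5% with H3K27ac only and 1.24% with both. At the other end, 5.72% of H3K122ac-only islands had 100 or more, against 7.18% with H3K4me1 only, 3.71% with H3K27ac only and 2.97% with both. H3K122ac reads per kb, which do not divide by the background, had medians of 53.3 in H3K122ac-only islands, 49.0 with H3K4me1 only, 62.0 with H3K27ac only and 79.3 with both.

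Fold was lower in longer H3K122ac-only islands, as it was in longer islands with H3K4me1 only and with H3K27ac only. Islands of up to 400 bp had a median fold of 6.72 (6.32 to 7.02) when H3K122ac-only and 5.10 (4.96 to 5.31) with both marks. Those over 2400 bp had 2.19 (2.08 to 2.38) when H3K122ac-only and 7.22 (7.10 to 7.32) with both marks. The medians of these shortest and longest ranges were 4.86 and 2.21 with H3K4me1 only, and 6.58 and 2.91 with H3K27ac only. With both marks the median stayed between 4.91 and 5.1 up to 1600 bp and was higher only beyond that. In the ranges between, H3K122ac-only islands had medians of 5.58 at 600 bp, 5.07 at 800 and 1000 bp, 3.70 up to 1600 bp and 2.74 up to 2400 bp. H3K122ac reads per kb followed the fold, with a median of 82.5 in H3K122ac-only islands of up to 400 bp and 31.2 in those over 2400 bp. No H3K122ac island under 10000 bp held fewer than 22 reads, so the shortest could be listed only with many reads per kb. What part this floor has in the fall with length, or in the high folds of short islands, was not tested. Only 317 H3K122ac-only islands, 4.38%, exceeded 2400 bp, against 44.0% of islands with both marks.

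The difference in fold from islands with H3K4me1 only depended on length and background. Taken alone, length left H3K122ac-only islands with the higher median in 5 of 6 ranges, and background density in 6 of 7. Within 20 joint ranges of length and background density the mean log2 ratio, weighted by the number of H3K122ac-only islands, was 0.0103. H3K122ac-only islands had the higher median in only 4 of the 20. The ratios in single joint ranges ran from -0.15 to 0.29 on the log2 scale. At similar length and background neither group was higher throughout, and in most ranges the H3K122ac-only median was not the higher. Against islands with both marks, the median was lower in 7 of 7 ranges of background density, but in 3 of 6 ranges of length, being higher in the 3 shorter ones. Within joint ranges the mean log2 ratio to islands with both marks, weighted in the same way, was -0.491. Single ranges ran from -1.6 to 0.276, and H3K122ac-only islands had the higher median in 1 of the 20. Against islands with H3K27ac only, H3K122ac-only islands had the lower median in 5 of 6 ranges of length.

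**Figure D2:**
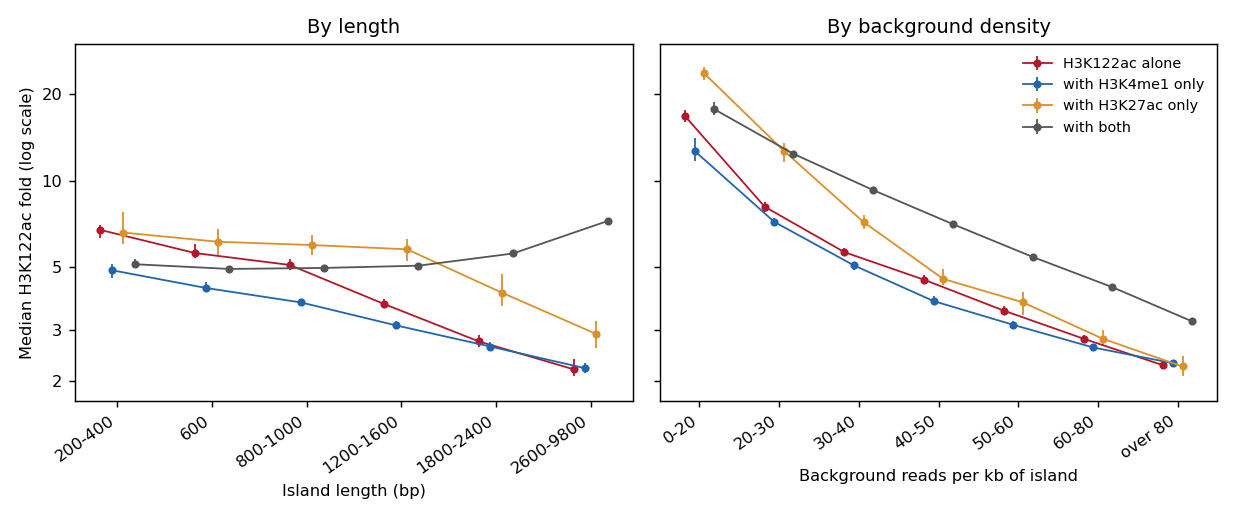
Median H3K122ac fold (log scale) of the 4 groups by island length (left) and by background reads per kb (right), with bars for the 95% interval of the median. The H3K122ac-only curve starts at 6.72 in the shortest and ends at 2.19 in the longest islands, where that of islands with both marks is at 7.22, and every group is lower at higher background density.

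Lack of a called island is not lack of the mark. From the 25th to the 75th percentile, H3K122ac-only islands held 24 to 71 background reads. In that range the lowest fold called was 1.35 in the H3K27ac list and 1.38 in the H3K4me1 list, and the 5th percentile of called folds was 1.5 and 1.63. In the H3K122ac list the lowest was 1.6 and the 5th percentile 2.53 at the same counts. The ratio of the immunoprecipitated to the background library was 0.258 for H3K122ac, 0.688 for H3K27ac and 0.581 for H3K4me1. The H3K122ac library was thus the shallowest, and these folds are not a comparison between marks. Weaker H3K27ac or H3K4me1 enrichment at these positions would not have been listed.

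Most H3K122ac-only islands stood apart from the marks they lacked by several kilobases. The nearest H3K4me1 island lay at a median distance of 9400 bp (9200 to 10000 bp) and the nearest H3K27ac island at 19400 bp (18400 to 20400 bp). The nearer of these lay at a median of 8600 bp (8200 to 9000 bp). H3K4me1 was the nearer mark for 4959 islands, 68.5% (67.5 to 69.6%), H3K27ac for 1374, and both were equally far from 902. The H3K4me1 list has fewer islands than the H3K27ac list, 113669 against 173981, over a greater length, 365 Mb against 315 Mb. Islands of either mark came within 1000 bp of 613 H3K122ac-only islands, 8.47% of them, and were over 50000 bp from 1117, or 15.4%. For 26 islands they were over 1 Mb away.

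Islands just inside and outside the rule had these values. Of the H3K122ac-only islands, 12 touched an island of another mark end to end without sharing a base pair, with a median fold of 3.29. The island taken as an example among these equals by position, chr10:135170601-135172200, had 90 H3K122ac reads over 15 background reads and a fold of 23.2 (exact interval 13.4 to 43.2). At the other side of the rule, 394 islands shared only 200 bp with another mark, the smallest overlap found, and had a median fold of 6.39. An overlap of 200 bp covers the whole of a 200 bp island, so the 394 were not all at the edge of the rule. There were 45 islands of 200 bp with H3K4me1 only, 16 with H3K27ac only and 83 with both. Folds on either side of the rule were not matched for length. Within 5000 bp of the group, H3K4me1 islands had lower folds than their list, and H3K27ac islands had folds close to theirs. The 1489 H3K27ac islands nearest to an H3K122ac-only island, and within 5000 bp of it, had a median H3K27ac fold of 2.23, against 2.27 for that list as a whole. The 2474 such H3K4me1 islands had a median H3K4me1 fold of 2.4, against 2.72 for that list, and 31.1% of them reached a fold of 3, against 42.4%. Of the H3K27ac islands 29.7% did, against 27.9% of that list. Within 1000 bp the median folds were 2.07 for 229 H3K27ac islands and 2.38 for 520 H3K4me1 islands, both below their lists.

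The fold was higher in islands farther from the other marks. Within 1000 bp of another mark the median fold was 3.54 (3.33 to 3.87). It was 3.76 from there to 5000 bp, 4.39 up to 20000 bp and 5.49 up to 100000 bp. The 582 islands beyond 100000 bp had a median of 6.82 (6.29 to 7.30), and 67.4% (63.4 to 71.0%) of them reached a fold of 5. Background density moved with distance, with medians of 33.3 reads per kb beyond 100000 bp and 50 within 1000 bp, and H3K122ac reads per kb moved the other way, with medians of 60 and 49. Length moved with distance too, with a median of 800 bp beyond 100000 bp and 1000 bp within 1000 bp, and its part in the fold was not tested. Split into 7 ranges of background density, islands over 20000 bp away had a higher median fold than islands within 5000 bp in all 7, and the intervals of the medians were apart in 4. Between 40 and 50 background reads per kb, for example, the medians were 4.89 (4.58 to 5.16) over 20000 bp away and 4.16 (3.92 to 4.41) within 5000 bp.

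**Figure D3:**
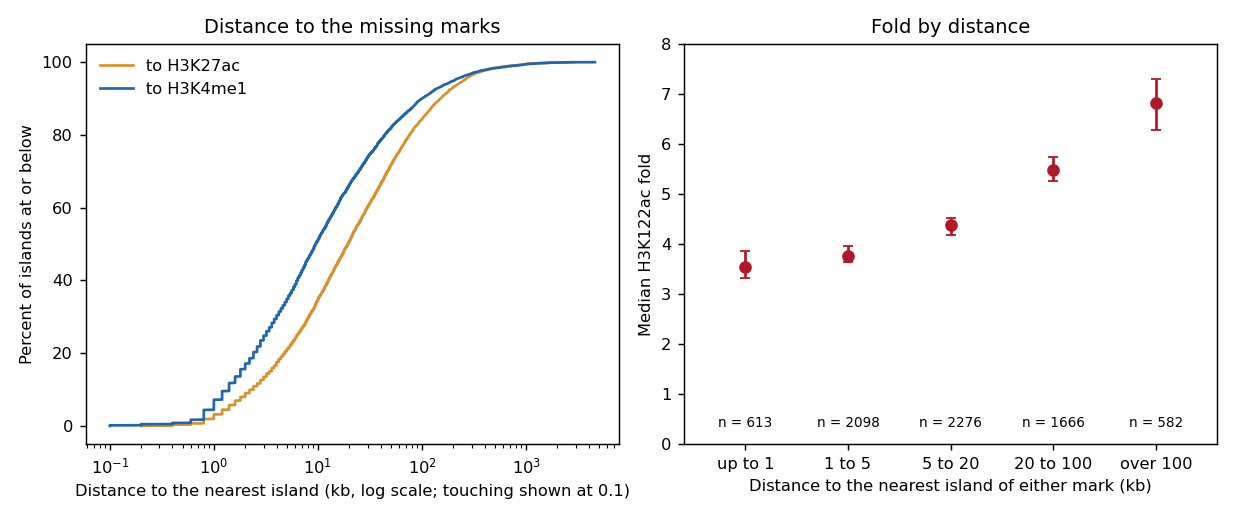
Cumulative distribution of the distance from each H3K122ac-only island to the nearest H3K27ac and H3K4me1 island (left, log scale), and median H3K122ac fold by distance to the nearer of them (right, bars show the 95% interval of the median). The H3K4me1 curve lies left of the H3K27ac curve, and median fold is 3.54 in the nearest group and 6.82 in the farthest.

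H3K122ac-only islands had a neighbour of their own group more often than other H3K122ac islands did. The nearest H3K122ac island was itself H3K122ac-only for 1937 islands, 26.8% (25.8 to 27.8%). Over all H3K122ac islands under 10000 bp, the neighbour was of this group in 9.18%. The share was 15.6% for islands with H3K4me1 only, 16.4% with H3K27ac only and 5.25% with both. The rule does not use neighbours, but it ties the share of H3K122ac-only islands to how much of a region the other marks cover. What part this has in the neighbour share was not tested. Isolated islands also have few neighbours of any kind. The median distance to the next H3K122ac island was 11000 bp for H3K122ac-only islands. It was 5600 bp with H3K4me1 only, 5000 bp with H3K27ac only and 3200 bp with both. Counting consecutive islands of the list, 4076 H3K122ac-only islands stood singly and 1728 in pairs. The longest run held 12 consecutive islands over chr5:19392401-20617200, with folds of 2.24 to 5.95 and 43.5 background reads per kb. Runs of 8 lay at chr4:134067601-134437400, with folds of 2.83 to 8.97, and at chr1:237917601-241573000, with folds of 2.71 to 10.7. A run of 8 at chr18:61616601-65049800 had higher folds, from 5.92 to 25.2, over a lower background of 17.8 reads per kb.

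Along the genome the islands were spread thinly. Of 2575 bins of 1 Mb that held an H3K122ac island under 10000 bp, 2236 held at least 1 H3K122ac-only island, with a median of 2 per bin, and the 258 bins with most of them held 27.6% of the group. Bins were ordered by the summed length of H3K27ac and H3K4me1 islands in them and split into 4 nearly equal groups. In the group with least of these marks, 36.2% (34.6 to 37.7%) of H3K122ac islands were H3K122ac-only. In the other groups the share was 16.3%, 10.0% and 5.41%, in rising order of the marks. The number of H3K122ac-only islands per bin changed less, with means of 2.11, 2.89, 3.35 and 2.90 in the same order. The rule itself ties the share to how much of a bin the other marks cover.

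The bin with most H3K122ac-only islands, chr8:60000001-61000000, held 20 among 76 H3K122ac islands, with a median fold of 5.04. It was not poor in the other marks, which numbered 62 H3K27ac and 61 H3K4me1 islands. The next, chr2:141000001-142000000, held 15 of 27, with a median fold of 5.72, and had few other marks, 13 H3K27ac and 4 H3K4me1 islands. A further 3 bins held 14 each. In chr13:66000001-67000000 their median fold was 6.61 over 30.5 background reads per kb. In chr7:134000001-135000000 and chr7:157000001-158000000 it was 2.21 and 2.77, over 83.8 and 64.1 background reads per kb. The bins thus differed in fold in the opposite order to their background density.

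The share of H3K122ac-only islands varied by chromosome. It was highest on chromosome 13, at 16.9% (15.1 to 18.8%) of 1546 islands, followed by chromosome 18 with 14.3% (12.6 to 16.3%) and chromosome 4 with 13.3% (12.1 to 14.5%). The lowest shares were 7.30% (6.33 to 8.42%) on chromosome 15, 7.56% on chromosome 17 and 8.10% on chromosome 19, which is rich in genes. Fold varied too. Median fold of H3K122ac-only islands was 7.90 on chromosome 13 and 7.47 on X, where background density was lowest, at 27.9 and 30 reads per kb. On chromosome 1, with the highest density at 66.3, the median fold was 3.14. K562 is aneuploid, and copy number was not measured here, so a change in background through copy number cannot be told apart from other sources. Within chromosomes the order of medians held, with islands with H3K27ac only not included and no matching for length or background density. H3K122ac-only islands had a higher median fold than islands with H3K4me1 only on 23 of 23 chromosomes, by 0.23 to 0.74 on the log2 scale. They had a lower one than islands with both marks on 23 of 23, with log2 ratios of -0.70 to -0.10. In joint ranges of length and background, over all chromosomes, the weighted mean log2 ratio to islands with H3K4me1 only was 0.0103. Chromosome Y held a single H3K122ac island and no island of either other mark, so that island could meet neither.

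**Figure D4:**
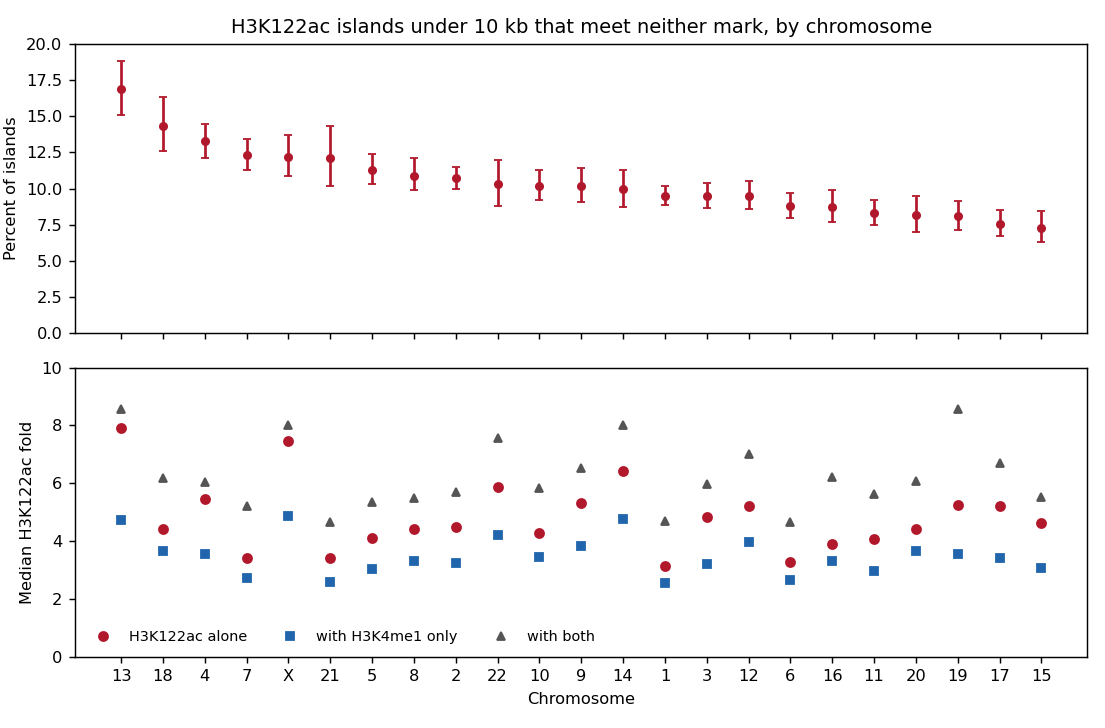
Percent of H3K122ac islands under 10000 bp that were H3K122ac-only on each chromosome, with Wilson 95% intervals (top), and median H3K122ac fold of 3 groups (bottom), with chromosomes in falling order of the share. Chromosome 13 is highest at 16.9% and chromosome 15 lowest at 7.30%, and the H3K122ac-only point lies between the other groups on every chromosome drawn.

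Named islands were taken from the 3274 H3K122ac-only islands with at least 50 H3K122ac and 10 background reads. The highest fold was 46.5 (exact interval 24.4 to 99.4) at chr5:82228201-82229000, an 800 bp island with 120 reads over 10 background reads, whose nearest island of any of the 3 marks lay 58000 bp away. The second, chr22:34253601-34254400, had 109 reads over 10 and a fold of 42.2 (22.1 to 90.5), and lay 475200 bp from H3K4me1 and 738000 bp from H3K27ac. The third, chr16:21529601-21531600, had 113 reads over 11 in 2000 bp and a fold of 39.8 (21.4 to 81.9). Their intervals overlap widely, so their order is not resolved at this depth. At chr8:23508201-23509000 the fold was 38.7 from 100 reads over 10, at chr17:18600801-18602000 it was 36.8 from 114 over 12, and at chr12:111361401-111362000 it was 35.2 from 100 over 11. These 6 islands had between 5.5 and 18.3 background reads per kb, below the median of the group, as a ranking by fold favours.

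Ranking by reads per kb above scaled background gave other islands. First was chr1:121483201-121485600, at the edge of the longest stretch of chromosome 1 free of islands. It had 880 reads over 1603 background reads in 2400 bp, and a fold of only 2.13 (1.96 to 2.31). Its background of 668 reads per kb was the highest of all H3K122ac islands under 10000 bp, and what part repeated sequence has in it was not tested. The next, chr20:58146801-58147400, combined a high fold of 24.8 (14.8 to 44.2), from 109 reads over 17, with a background of 28.3 reads per kb. It was followed by the chr12 island above and by chr1:242214801-242215200, of 400 bp, with 67 reads over 12 and a fold of 21.6 (11.6 to 43.9).

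**Figure D5:**
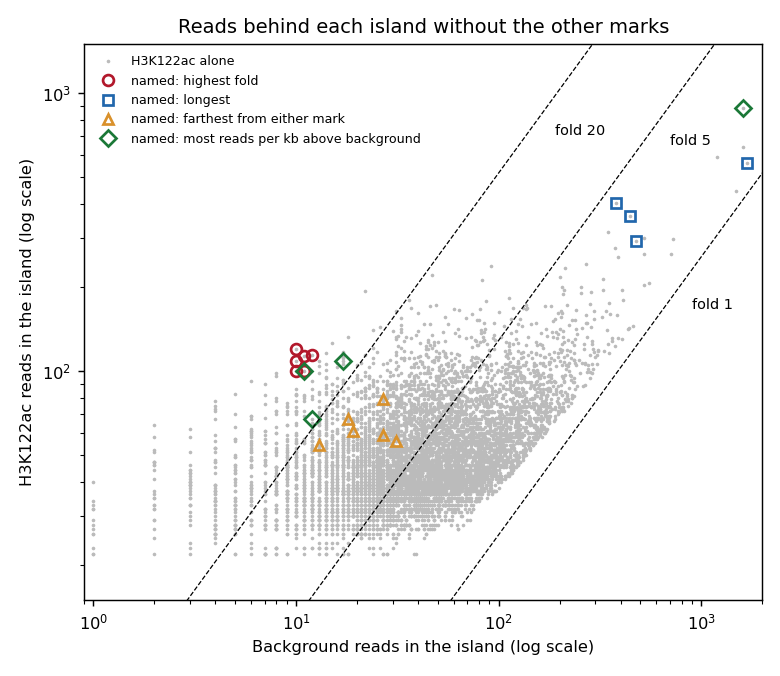
H3K122ac reads against background reads of every H3K122ac-only island with at least 1 background read (grey points, log scales), with the named islands as open symbols and dashed lines at folds of 1, 5 and 20. The 6 islands named for highest fold, among those with at least 10 background reads, lie at 100 to 120 H3K122ac reads over 10 to 12 background reads, and 3 of the 4 longest lie at 377 to 477 background reads with folds of 2.38 to 4.12.

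Named islands farthest from the other marks all had folds above the median of the H3K122ac-only group, 4.55. At chr13:55627601-55629000 the fold was 16.1 (8.66 to 32.1) from 54 reads over 13, with H3K4me1 2117800 bp and H3K27ac 2290000 bp away. At chr9:66457601-66459000 it was 11.3 (7.24 to 18.2) from 79 reads over 27, with H3K27ac 1996000 bp away. At chr7:57706401-57707400 it was 12.4 (7.33 to 22.0) from 61 over 19, with both other marks 1530200 bp away. Each of these 3 bordered the longest island-free stretch of its chromosome, a position that a choice by distance favours. The remaining 3, chr6:55009201-55010600, chr6:78359801-78360600 and chr12:85862601-85864000, had folds of 6.99, 14.4 and 8.46, between 1163200 and 1224200 bp from the nearer mark. Every lower interval bound among these 6 islands was 4.43 or more. Within 2 Mb of such a longest stretch, 12.4% (11.0 to 14.0%) of H3K122ac islands were H3K122ac-only, against 10.1% (9.89 to 10.3%) elsewhere. What part the rule itself has in this difference was not tested. Positions within 2 Mb held 3.18% (2.8 to 3.61%) of H3K122ac-only islands, 2.3% of those with H3K4me1 only, 3.36% (2.78 to 4.05%) with H3K27ac only and 2.53% with both.

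Of the 4 longest H3K122ac-only islands, 3 lay close together on chromosome 8: chr8:47153201-47161800 of 8600 bp, chr8:47352601-47360800 of 8200 bp and chr8:47343601-47351400 of 7800 bp. Their folds were 2.38 (2.05 to 2.76), 3.16 (2.74 to 3.63) and 4.12 (3.57 to 4.75), from 293 to 401 reads over 377 to 477 background reads, which gives narrower intervals than the median counts of the group do. The other, chr22:22411401-22419800 of 8400 bp, had a fold of 1.29 (1.17 to 1.42) over 1685 background reads, or 201 per kb. Only 7 islands that met neither mark were kept out by length, from 10200 to 39400 bp, and 4 of these lay in the same stretch of chromosome 8. The shortest of the 7, chr12:34523201-34533400, had a fold of 3.99. The longest, chr22:23424401-23463800, had a fold of 1.05 over 297 background reads per kb. The second longest, chr9:133965001-133991000, had a fold of 1.34 over 255. Segments of these chromosomes around ABL1 and BCR are known to be amplified in K562, and whether the islands lie in them was not tested.

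In the bin chr8:47000001-48000000, picked after these values were seen, 17 islands of any length met neither mark and covered 107 kb between positions 47020001 and 47988000. Among its 16 H3K122ac islands under 10000 bp, 13 were H3K122ac-only, with folds of 1.95 to 24.5 and a median of 3.01. Summed over these 13, background was 52.3 reads per kb. The medians of single islands, a different measure, were 45 for H3K122ac-only islands and 52.5 for all H3K122ac islands under 10000 bp. The bin also held 11 H3K27ac islands over 12.4 kb and 8 H3K4me1 islands over 19.8 kb. At chr8:47020001-47062200, 5 consecutive islands without either mark covered 37200 of 42200 bp with a fold of 2.16 from 1170 summed reads over 2093. A second, chr8:47139001-47175600, held 3 islands over 34200 bp with a fold of 2.99. Among runs of 2 or more consecutive islands with neither mark, at most 5000 bp apart, these covered the greatest lengths in the list.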

How the data were processed

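Chromatin of K562 cells was cut with micrococcal nuclease and immunoprecipitated, per the labels' protocols. Bowtie 0.12.8, HOMER 4.3, SICER 1.1 and build hg19 are named in the submitters' processing notes, without roles. Per the names of the deposited lists, islands were built from windows of 200 bp at a false discovery rate of 0.01, with gaps of 600 bp bridged for H3K122ac and H3K4me1 and of 200 bp for H3K27ac. The deposited lists give whole-number read counts of the immunoprecipitated and background libraries, not normalized. They also give the authors' p-value and adjusted q-value, and a fold, the ratio of counts divided by a constant of 0.258 for H3K122ac, recomputed from the counts. The lists share a background library, since all 5183 islands with the same ends in the H3K122ac and H3K27ac lists had the same background count. Its identity is not stated in the labels.

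Islands were classed by overlaps of at least 1 bp in Python 3.11.15 with pandas 2.3.3, numpy 2.4.6 and SciPy 1.17.1, and the code was tested on simulated intervals. Coordinates are 1-based. Shares carry Wilson 95% intervals, medians order-statistic binomial intervals, and single folds exact binomial intervals that cover counting error only. The longest, the most enriched by fold or by reads above background, and the farthest islands were named, together with the bins, runs and chromosomes with most or fewest. The group, the rule for naming and the alternatives were chosen with earlier results of these data known. The mouse lists were not used here.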

Additional observations from a re-analysis of the deposited data

How the results depend on the processing

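In 72 recomputed values, 36 stayed within the counting interval of the value given above (counts within 1.5 times). All those obtained with H3K27ac islands joined across 600 bp, without a length limit, or on numbered chromosomes did so. These settings left the group at 7236, 7243 and 6978 islands, so they could move the values little. With a fold of 3 or more required of H3K27ac and H3K4me1 islands, 30691 islands met neither mark and the log2 ratio to islands with H3K4me1 only turned to -0.303, with -1.44 to islands with both. A fold of 5 was then reached by 28.7%, background was 61.0 reads per kb, the distance to another mark 12400 bp and the share with a neighbour of the group 59.3%. The cause of the turn was not tested. Within joint ranges of length and background the weighted mean log2 ratios were 0.0103 and -0.491. With another mark within 5000 bp counted as met, 4525 islands remained in the group, the log2 ratio to islands with both marks was -0.148, the share at a fold of 5 was 50.4%, background 42.5, distance 19900 bp and the neighbour share 31.5%. With 1000 bp the distance was 10200 bp. Both distances rise by the settings themselves, which remove the islands nearest to another mark. With 50% of the island to be covered, the group held 9893 islands, some of them overlapping another mark in part. The log2 ratio to islands with H3K4me1 only was 0.336, background 43.0 and neighbour share 29.7%. The median distance of 3800 bp includes these overlapping islands, so it cannot be compared with the 8600 bp above. At a q-value of at most 1e-10 in all 3 lists the log2 ratios were 0.214 and -0.621, the share at a fold of 5 was 48.6%, background 47.5, distance 10600 bp and neighbour share 34.2%. When H3K122ac itself needed a fold of 3 they were 0.373 and -0.245, 62.7%, 36.5 reads per kb and 10800 bp. The 62.7% follows from the setting, since the 3253 islands at a fold of 5 all remained among 5188. With at least 10 background reads the log2 ratios were 0.424 and -0.458, the share at a fold of 5 was 41.6%, background 46.7 and neighbour share 25.7%. No paired analysis was possible because each K562 mark had 1 list and nothing was tested between samples.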
